A study of Homo sapiens with 6 samples.

Results

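NEAT1, the long noncoding RNA (lncRNA) around which paraspeckles are built, was described together with 8 genes of nuclear RNA-binding proteins, SFPQ, NONO, PSPC1, RBM14, MATR3, TARDBP, DAZAP1 and CPSF6. The genes were taken by name from the deposited expression table, and all 9 were found among its 25528 gene symbols. All 9 also passed the expression minimum, a mean of 1 TPM over the samples, which left 11672 genes for testing. TPM is a read count divided by gene length and then set to a total of 1000000 in each sample.

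The samples were 6 RNA-seq libraries of DU-145/tet-XISTshRNA cells. DU-145 is a human prostate cancer line, here transduced with a doxycycline-inducible short hairpin RNA (shRNA) that targets the lncRNA XIST and selected in puromycin or geneticin. Vehicle cells (n = 3) received 0.1% DMSO and DOX cells (n = 3) received 500 ng/ml doxycycline for 7 days, so both groups carried the vector. Cells with a control shRNA and doxycycline were not analysed here, and an effect of the hairpin cannot be told apart from an effect of doxycycline. The replicates were cultures grown in triplicate, and all p-values measure the spread between these cultures.

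Paraspeckles are nuclear bodies that assemble on NEAT1 while it is transcribed. NEAT1 is made as a short polyadenylated isoform and as a long isoform that is not polyadenylated, and the long one forms the scaffold. The DBHS proteins SFPQ, NONO and PSPC1 pair with one another and coat NEAT1, RBM14 and DAZAP1 help to build the body, and cleavage factor Im, of which CPSF6 encodes a subunit, favours the short isoform. MATR3 and TARDBP (TDP-43) bind nuclear RNAs, among them NEAT1 and the E-repeat of XIST.

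Depth differed between the libraries, with 5455082 reads on genes in vehicle replicate 3 and 64572454 in DOX replicate 1. Small noncoding RNAs (RN7SL1, RN7SL2, RN7SL3, RN7SK and RPPH1) held 67.5% to 76.0% of the TPM in vehicle and 76.0% to 82.6% in DOX samples, and their part in the differences was not tested beyond the rescaled values below. The median log2 fold change over all genes tested was -0.35, and median-of-ratios scaling, which sets a typical gene equal between samples, moved it by 0.36 to 0.01. The silencing target of the shRNA was listed at 0 in each of the 6 samples, and the TPM therefore gives no measure of the silencing. Of 6 epithelial markers, 5 reached 1 TPM, with KRT5 at 0, and their summed level was 213.9 to 358.1 TPM in vehicle and 257.5 to 285.7 TPM in DOX cells. Of 8 blood and stromal markers only CD68 reached 1 TPM, CD3E and DCN were at 0, and the sum was 15.8 to 20.3 TPM against 11.7 to 12.99 TPM.

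NEAT1 fell on the TPM scale, and none of the 8 protein genes passed the test. NEAT1 stood at 90.0, 106.5 and 132.2 TPM in vehicle replicates 1, 2 and 3 and at 27.8, 38.9 and 45.5 TPM in DOX replicates 1, 2 and 3. The groups did not overlap, and the highest DOX value lay well under the lowest vehicle value. On the log2(TPM + 1) scale the mean difference was -1.53 (95% interval -2.10 to -0.97), a 2.90-fold lower level, with an adjusted p of 0.00293 (limma, Benjamini-Hochberg). This was the fourth lowest log2 fold change, rank 4 among the 11672 genes, of which 2.98% were called lower and 0.0257% higher at an adjusted p under 0.05 and a fold change over 1.5. The values rest on 17101 to 92290 NEAT1 reads in a sample. In bulk RNA, fewer cells that express NEAT1 and less NEAT1 per cell cannot be told apart.

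The size of the NEAT1 difference and its call depended on how the samples were scaled. After median-of-ratios scaling, NEAT1 had 86.3, 96.2 and 94.3 TPM in the vehicle samples and 40.6, 38.3 and 48.8 TPM in the DOX samples, still without overlap. The scaled log2 difference was -1.10 (95% interval -1.39 to -0.82) and ranked 5 among 11602 genes, while the adjusted p of 0.0869 from limma missed the threshold. This scale takes out what NEAT1 shares with the typical gene. Leaving out vehicle replicate 2 or vehicle replicate 3 also ended the call on the TPM scale (adjusted p = 0.301 and 0.133 from limma), at log2 differences of -1.55 and -1.39. In limma voom on recovered reads the call held, with a log2 difference of -1.11 (adjusted p = 0.0259, or 0.00141 once replicate number entered the fit as a block).

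The NEAT1 gene spans 65422774 to 65445540 on chromosome 11 (GRCh38, plus strand). The values join both isoforms, which overlap at the 5′ end, so the short and the long isoform were not told apart, and the libraries were made with a kit that selects polyadenylated RNA. Small noncoding RNAs still held 67.5% to 82.6% of the TPM across the 6 samples. How far the selection favoured the short isoform was not tested. The gene length implied by the TPM was 7.66 times that of NONO. The longest run of TG repeats in NEAT1 is shown because TDP-43 binds UG-rich RNA. It spans 59 bases, positions 21467 to 21525 of a 22743-base transcript of a single exon in GENCODE 44, which is the region that only the long isoform covers. The capitals mark the repeat, printed with 12 bases on either side from chr11:65444252-65444334, plus strand.
NEAT1 TG repeat: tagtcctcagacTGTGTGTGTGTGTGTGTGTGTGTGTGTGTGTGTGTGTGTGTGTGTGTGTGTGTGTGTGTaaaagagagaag
Overlapping matches to TGTGTG on the transcript strand numbered 76 in NEAT1, or 3.34 per kb, against a median of 0.420 per kb over the longest transcripts of 10850 genes, and 98.4% of genes had a lower density. CPSF6 came next among the 9 genes with 14 matches (1.86 per kb), and SFPQ and PSPC1 had 0. TGTA, the DNA form of the element that cleavage factor Im binds, occurred 141 times in NEAT1 (6.20 per kb) and 56 times in CPSF6 (7.44 per kb), against a median of 3.70 per kb. These are letter matches, and binding was not measured.

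**Figure D1:**
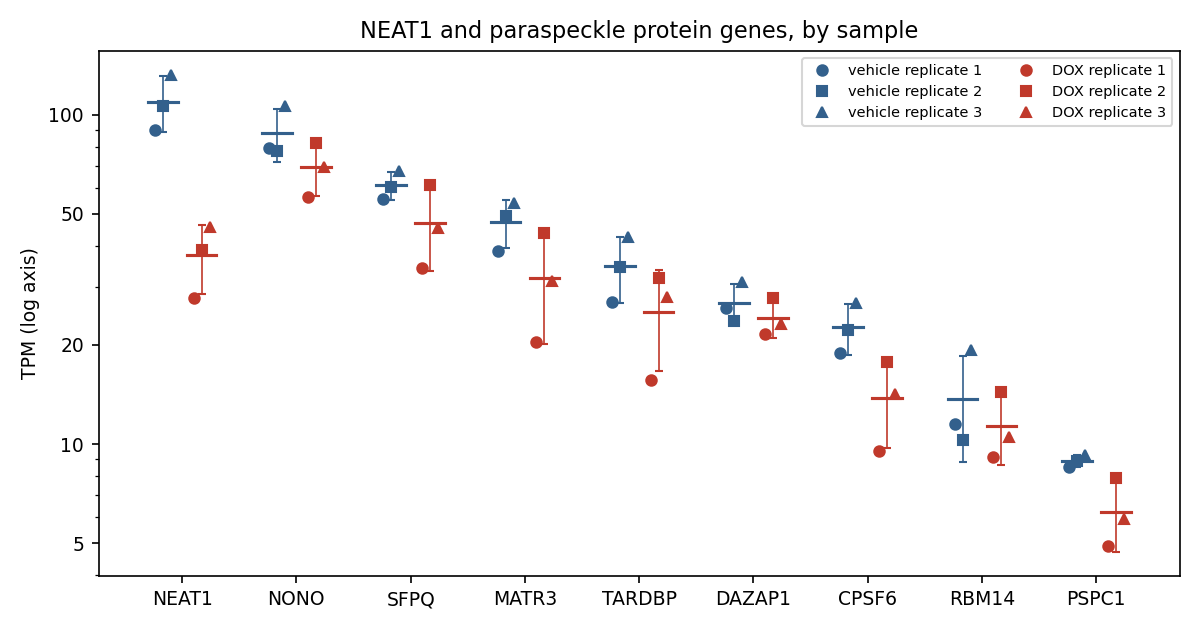
TPM of the 9 genes (log axis) in each of 3 vehicle (blue) and 3 DOX (red) samples, with the marker shape giving the replicate number, lines the group mean and bars the SD. The NEAT1 groups are separate, from 90.0 TPM upward with vehicle and up to 45.5 TPM with DOX, while SFPQ, NONO, RBM14, MATR3, TARDBP and DAZAP1 overlap.

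The DBHS genes SFPQ, NONO and PSPC1 did not pass the test, and their ratios to one another overlapped between the groups. They lie on chromosome 1 (SFPQ, 35176378 to 35193446, minus strand), chromosome X (NONO, 71254814 to 71301522, plus strand) and chromosome 13 (PSPC1, 19674752 to 19783019, minus strand). SFPQ, the splicing factor that NEAT1 and paraspeckles require, had 55.3, 60.2 and 67.4 TPM in the vehicle and 34.2, 60.9 and 45.3 TPM in the DOX samples. DOX replicate 2 reached the middle of the vehicle range, and the log2 difference was -0.41 (95% interval -0.97 to 0.15, adjusted p = 0.299 from limma). NONO, its usual partner in heterodimers, was at 79.2, 77.6 and 106.2 TPM against 56.4, 82.2 and 69.6 TPM. Its log2 difference of -0.33 (95% interval -0.89 to 0.22, adjusted p = 0.380 from limma) was close to the median of all genes. PSPC1, the least abundant of the family here, had 8.55, 8.86 and 9.26 TPM with vehicle and 4.90, 7.90 and 5.92 TPM with DOX. PSPC1 did not overlap between the groups, and the difference was -0.47 (95% interval -0.96 to 0.02, adjusted p = 0.180 from limma). With the replicate block its adjusted p was 0.0499 from limma. At 1.39-fold, the difference stayed under the 1.5-fold that a call needs. Median-of-ratios scaling brought the log2 differences to 0.02 for SFPQ, 0.10 for NONO and -0.09 for PSPC1, which turned the sign for SFPQ and NONO.

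Within a sample, NONO was 1.29 to 1.58 times as abundant as SFPQ in the vehicle group and 1.35 to 1.65 times in the DOX group (two-sided exact permutation p = 0.6). The ratio of NONO to PSPC1 was 8.76 to 11.5 in vehicle and 10.4 to 11.8 in DOX samples, and that of SFPQ to PSPC1 was 6.46 to 7.28 against 6.99 to 7.71 (exact permutation p = 0.2 for each, 0.3 after adjustment over the 3 ratios). All of these ranges overlapped. With 3 samples against 3 the exact test cannot give a p under 0.1, so these ratios could not have passed a threshold of 0.05.

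RBM14 (chromosome 11, 66616626 to 66629934, plus strand) and DAZAP1 (chromosome 19, 1407569 to 1435687, plus strand) had the smallest log2 differences of the 8. RBM14, a protein with a prion-like domain, had 11.5, 10.3 and 19.3 TPM with vehicle and 9.13, 14.4 and 10.5 TPM with DOX. Vehicle replicate 3 stood above all other samples, and without it the log2 difference went from -0.22 (95% interval -0.76 to 0.31, adjusted p = 0.539 from limma) to 0.03. DAZAP1, a splicing regulator, had 25.9, 23.7 and 31.1 TPM against 21.6, 27.8 and 23.1 TPM, with overlap and a log2 difference of -0.15 (95% interval -0.68 to 0.39, adjusted p = 0.691 from limma). After median-of-ratios scaling the differences were 0.18 for RBM14 and 0.28 for DAZAP1, so both signs turned.

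MATR3 and TARDBP, the E-repeat binding proteins of the list, overlapped between the groups, MATR3 through DOX replicate 2 and TARDBP through DOX replicates 2 and 3. MATR3, a nuclear matrix protein that binds RNA and DNA, had 38.5, 49.1 and 53.8 TPM in vehicle and 20.5, 43.8 and 31.3 TPM in DOX samples. The log2 difference was -0.60 (95% interval -1.18 to -0.03, adjusted p = 0.154 from limma). Under the replicate block limma gave MATR3 an adjusted p of 0.0146 and called it lower, in a fit that called 19.0% of all genes lower. Without DOX replicate 2 it was also called, at -0.86 (adjusted p = 0.0389 from limma), in a fit that called 2378 genes lower. TARDBP (chromosome 1, 11012344 to 11030528, plus strand) had 26.9, 34.5 and 42.5 TPM against 15.7, 31.9 and 28.0 TPM. Its log2 difference was -0.48 (95% interval -1.05 to 0.10, adjusted p = 0.237 from limma, or 0.0506 from limma with the block). At 1.39-fold it was under the 1.5-fold difference that a call needs, with or without the block. Median-of-ratios scaling left -0.18 for MATR3 and -0.06 for TARDBP, and correction for GC content and length gave 0.06 for each. The ratio of TARDBP to MATR3 was 0.698 to 0.789 in vehicle and 0.729 to 0.893 in DOX samples (exact permutation p = 0.3).

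The symbol MATR3 stands for 2 overlapping Ensembl genes on the plus strand of chromosome 5, which start at 139273752 and 139293674, and its reads could not be assigned to one of them or told apart from SNHG4, which overlaps on the same strand. Promoter windows of 300 bases were found in RefSeq (GRCh38.p14) for 7 of the 9 genes, with 2 entries for MATR3. The MATR3 and CPSF6 promoters are shown, since these were the protein genes called lower with the block. Both MATR3 entries are on the plus strand, and their capitals mark a match to the NF-kB consensus, searched because the study assayed NF-kB. The match begins at position -24 in the first entry (chr5:139273851-139274150) and at 1 in the second (chr5:139293490-139293789), counted from the first transcribed base as 1.
MATR3 first promoter: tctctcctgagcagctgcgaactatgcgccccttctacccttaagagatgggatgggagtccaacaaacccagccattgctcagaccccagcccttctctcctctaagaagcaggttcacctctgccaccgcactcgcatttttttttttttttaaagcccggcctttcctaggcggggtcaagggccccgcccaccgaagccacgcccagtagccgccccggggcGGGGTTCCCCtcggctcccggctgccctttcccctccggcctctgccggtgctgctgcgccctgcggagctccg
MATR3 second promoter: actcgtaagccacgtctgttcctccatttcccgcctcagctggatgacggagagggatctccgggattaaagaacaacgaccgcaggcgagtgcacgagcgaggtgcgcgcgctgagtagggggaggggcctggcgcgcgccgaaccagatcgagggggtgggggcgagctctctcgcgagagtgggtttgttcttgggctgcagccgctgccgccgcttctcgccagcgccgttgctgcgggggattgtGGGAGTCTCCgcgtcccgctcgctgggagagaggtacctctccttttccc
For CPSF6 (chr12:69239319-69239618, plus strand) the capitals mark the single CCAAT box, read on the minus strand as ATTGG, at -181.
CPSF6 promoter: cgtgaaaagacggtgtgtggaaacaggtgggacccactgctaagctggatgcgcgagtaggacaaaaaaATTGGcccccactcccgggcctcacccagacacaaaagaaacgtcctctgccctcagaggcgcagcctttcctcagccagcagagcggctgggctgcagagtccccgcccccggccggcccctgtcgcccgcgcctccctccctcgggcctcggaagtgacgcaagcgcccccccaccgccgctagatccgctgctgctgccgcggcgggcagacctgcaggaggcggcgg
Searched on both strands, the NF-kB consensus was present in 11.3% of 35116 RefSeq promoters and in the entries of DAZAP1 and MATR3. The TARDBP window held no match, whereas the paper reports a putative NF-kB motif at the TDP-43 promoter, with NF-kB occupancy there. That region was not compared with the window of 300 bases, and only this consensus was searched. CCAAT was present in 34.6% of all promoters and, here, in CPSF6 (1 match), NONO (3) and RBM14 (3). GGGCGG, the GC box, was present in 45.0% of promoters and in CPSF6, DAZAP1, TARDBP and the first MATR3 entry. TATAAA (11.5% of promoters) and CCGGAAG, an ETS motif (10.3%), matched in 0 of the 8 entries. The matches are descriptions of the letters in these windows.

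CPSF6 had the largest difference of the 8 protein genes, and it did not overlap between the groups on either scale. CPSF6 (chromosome 12, 69239569 to 69274358, plus strand), which encodes a subunit of cleavage factor Im in 3′ end processing, had 18.9, 22.3 and 26.8 TPM with vehicle and 9.53, 17.8 and 14.2 TPM with DOX. The log2 difference was -0.70 (95% interval -1.24 to -0.15), and the adjusted p of 0.0949 from limma missed the threshold. The block called it lower (adjusted p = 0.00431 from limma), as did leaving out DOX replicate 2 (-0.89, adjusted p = 0.0240 from limma). Over all genes tested, the block called 19.0% lower, and the fit without DOX replicate 2 called 2378 genes lower. Median-of-ratios scaling left -0.29 (95% interval -0.56 to -0.01, adjusted p = 0.304 from limma), and correction for GC content and length left -0.07.

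**Figure D2:**
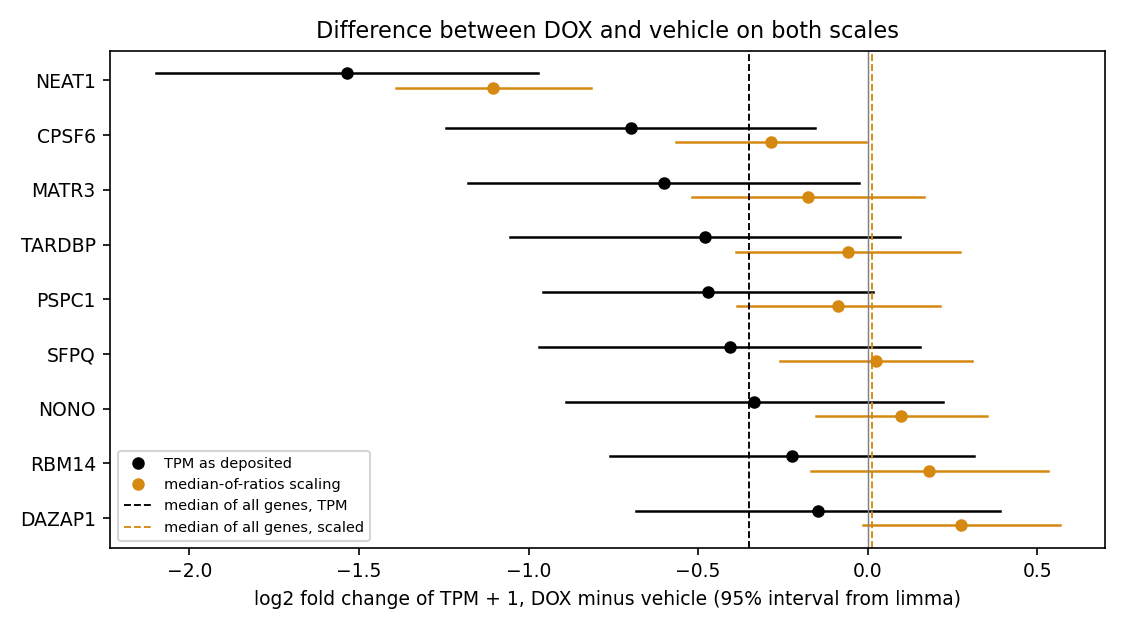
Log2 fold change (DOX minus vehicle, log2 of TPM + 1) with its 95% interval from limma for the 9 genes, as deposited (black) and after median-of-ratios scaling (orange), with dashed lines at the medians of all genes. NEAT1 lies apart from the others on both scales, at -1.53 and -1.10, and the 8 protein genes lie around each dashed line.

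As a group, 0 of the 8 protein genes were called lower and 0 higher by limma, and 2 of them (CPSF6 and MATR3) had an unadjusted p under 0.05, both lower. What share of all genes had such a p, or a log2 difference below 0, is not given here. Voom on recovered reads with the block also called 0 of the 8. All 8 log2 differences were below 0, from -0.70 to -0.15, with a median of -0.44 beside the -0.35 of all genes, and 5 lay below and 3 above the latter. After median-of-ratios scaling, 4 were below and 4 above 0, with a median of -0.02. All DOX values were under all vehicle values for PSPC1 and CPSF6, which is 2 of the 8 protein genes, and for 30.7% of all genes tested. Protein levels were not analysed here.

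Relative to its protein partners, NEAT1 was lower in each DOX sample than in any vehicle sample. The ratio of NEAT1 to the mean of the 8 protein genes (a ratio of TPM + 1, averaged on the log2 scale) was 3.32, 3.66 and 3.64 in the vehicle and 1.62, 1.36 and 1.99 in the DOX samples. The groups did not overlap, and the ratio was 2.17-fold lower with DOX, a log2 difference of -1.11. The two-sided exact permutation p was 0.1, the smallest that 3 samples against 3 allow. A ratio within a sample does not depend on the scaling between samples, apart from the pseudocount, and across the 17 alternatives the log2 difference stayed between -1.26 and -0.98. Leaving out DOX replicate 3 gave the first of these values and leaving out DOX replicate 2 the second. Set against the median of all genes tested, NEAT1 itself differed by -1.19 on the log2 scale. A lower ratio is therefore not a trait shown for these 8 genes alone.

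Gene by gene, the ratio to NEAT1 separated the groups for all 8 protein genes. How many of all genes tested would also separate the groups by this ratio is not given here. By log2 fold change, NEAT1 itself ranked 4 from the lowest among 11672 genes, so the separation is not a trait shown for these 8 genes alone. In TPM, NEAT1 exceeded NONO in the vehicle samples (1.14, 1.37 and 1.25 times) and was under it in the DOX samples (0.493, 0.474 and 0.654 times). The length used for NEAT1 was 7.66 times that of NONO, and its isoforms were not told apart. Which of these genes stands higher depends on that length. For CPSF6 the ratio was 4.76, 4.78 and 4.93 with vehicle and 2.92, 2.19 and 3.20 with DOX, the smallest shift, 1.77-fold. DAZAP1 had the largest, 2.66-fold, from 3.48, 4.49 and 4.26 to 1.29, 1.40 and 1.97. Each of the 8 ratios had an exact permutation p of 0.1, also after adjustment over the 8, and all 8 share the NEAT1 values. MALAT1, the lncRNA that neighbours NEAT1 on chromosome 11, was also set beside it. The ratio of NEAT1 to MALAT1 was 0.0342 to 0.0380 with vehicle and 0.0243 to 0.0347 with DOX, with overlap (exact permutation p = 0.2).

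**Figure D3:**
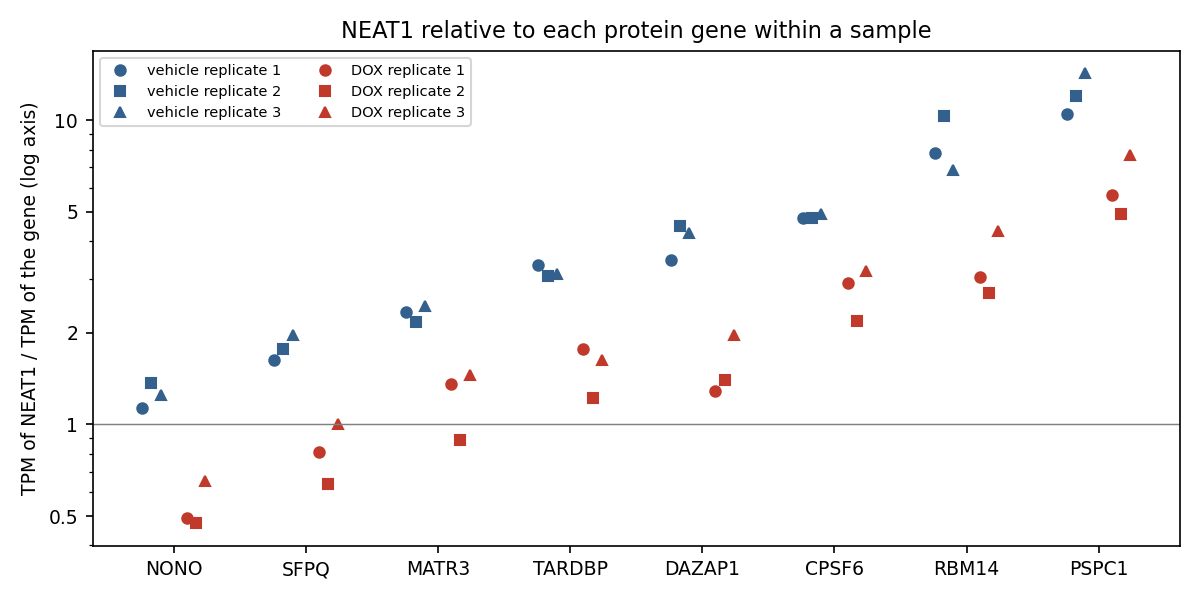
TPM of NEAT1 divided by TPM of each protein gene in the same sample (log axis, without a pseudocount), for 3 vehicle (blue) and 3 DOX (red) samples, with a grey line at equal TPM. For each of the 8 genes the 3 DOX points lie below the 3 vehicle points, and for NONO they cross from above 1 to below it. Where a ratio lies against 1 depends on the gene lengths used in the TPM.

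By mean vehicle TPM the order was NEAT1, NONO, SFPQ, MATR3, TARDBP, DAZAP1, CPSF6, RBM14 and PSPC1. NEAT1 was above NONO in 3 of 3 vehicle samples and in 0 of 3 DOX samples, and the vehicle ranges of these genes overlapped. The place of NEAT1 in this order depends on the gene length used in the TPM, which joins both isoforms. TARDBP was above DAZAP1 in 5 of 6 samples, and each other pair of neighbours kept its order in 6 of 6. The vehicle ranges of MATR3 and TARDBP, TARDBP and DAZAP1, DAZAP1 and CPSF6, and CPSF6 and RBM14 overlapped, and the ranges of NONO and SFPQ, SFPQ and MATR3, and RBM14 and PSPC1 did not overlap.

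The differences of the protein genes ran with the GC content of their transcripts. CPSF6 and MATR3, with the lowest GC content (37.5% and 37.6%), had the lowest log2 differences, and RBM14 and DAZAP1, with the highest (52.9% and 52.3%), the highest. Over the 8 genes Pearson's r was 0.94, and over 10850 genes tested with an annotated transcript it was 0.68, given as descriptions across genes that share the same 6 libraries. NEAT1 had a GC content of 44.1%. Correction of each sample for GC content and length left a log2 difference of -1.01 for NEAT1 (95% interval -1.26 to -0.75, adjusted p = 0.0932 from limma), which missed the threshold, and a median of 0.05 for the protein genes. The part of GC content in these differences was not tested further.

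**Figure D4:**
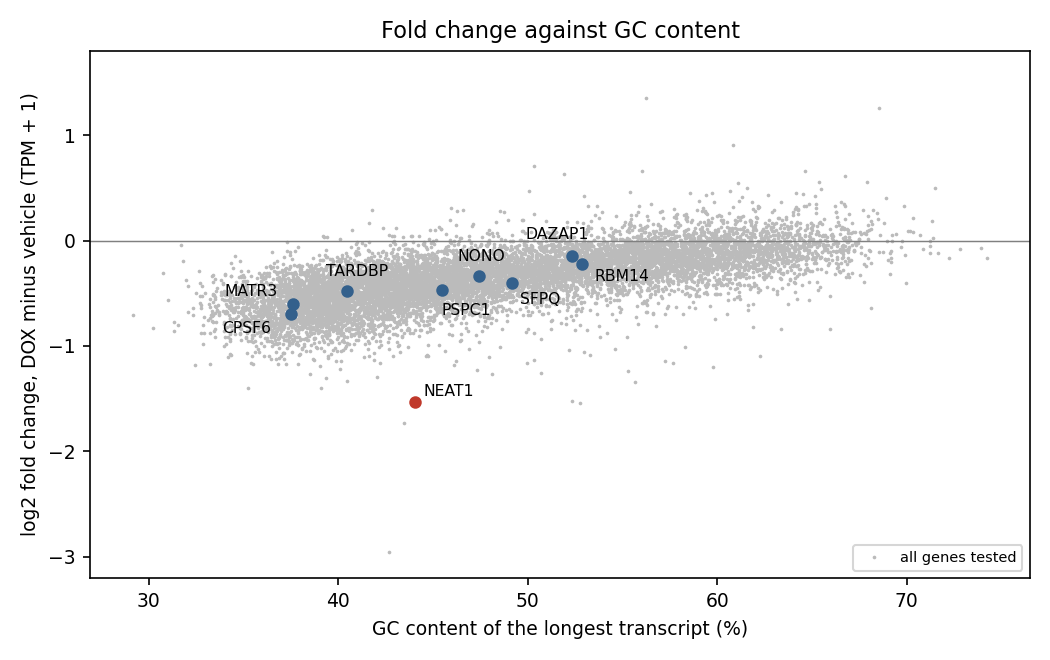
Log2 fold change (DOX minus vehicle) against the GC content of the longest annotated transcript (%), for 10850 genes tested (grey), NEAT1 (red) and the 8 protein genes (blue). The protein genes run along the grey band from CPSF6 at -0.70 to DAZAP1 at -0.15, and NEAT1 lies under it at -1.53.

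Among other proteins reported in paraspeckles, the share called lower was close to that of all genes. Of 32 further genes, 29 passed the expression minimum, 1 was called lower (2.98% of all genes were) and 0 higher by limma, and 10 had an unadjusted p under 0.05, all lower. The shares of all genes at an unadjusted p under 0.05 from limma and with a log2 difference below 0 are not given here. The median log2 difference of the 29 was -0.41 (-0.35 for all genes), with all 29 below 0. After median-of-ratios scaling it was -0.01, with 16 below and 13 above 0. ZC3H6, a zinc finger protein, was the gene called lower, with 3.37, 3.98 and 4.62 TPM in vehicle and 1.31, 2.20 and 2.09 TPM in DOX samples. Its groups did not overlap, and its log2 difference was -0.81 (standard error 0.21, adjusted p = 0.0387 from limma), or -0.50 after median-of-ratios scaling (adjusted p = 0.275 from limma). The next lowest were RBM7, of the nuclear exosome targeting complex (-0.78, adjusted p = 0.0833 from limma), and FIGN, an AAA ATPase (-0.76, adjusted p = 0.0548 from limma). The highest were RBM4B (-0.05), the transcription factor RUNX3 (-0.06) and HNRNPUL1 (-0.11). With the replicate block 9 of the 29 were called lower, namely FIGN, HNRNPH1, HNRNPH3, HNRNPR, NUDT21, RBM7, RBM12, SRSF10 and ZC3H6, in the fit that called 19.0% of all genes lower, and voom with the block called 1 of the 29. Without DOX replicate 2 the count was 8, in a fit that called 2378 genes lower among all genes tested. It was 0 without vehicle replicate 2, vehicle replicate 3, DOX replicate 1 or DOX replicate 3. Those fits called 1, 0, 129 and 139 genes lower among all genes tested. CELF6, DLX3 and ENOX1 were under the minimum.

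**Figure D5:**
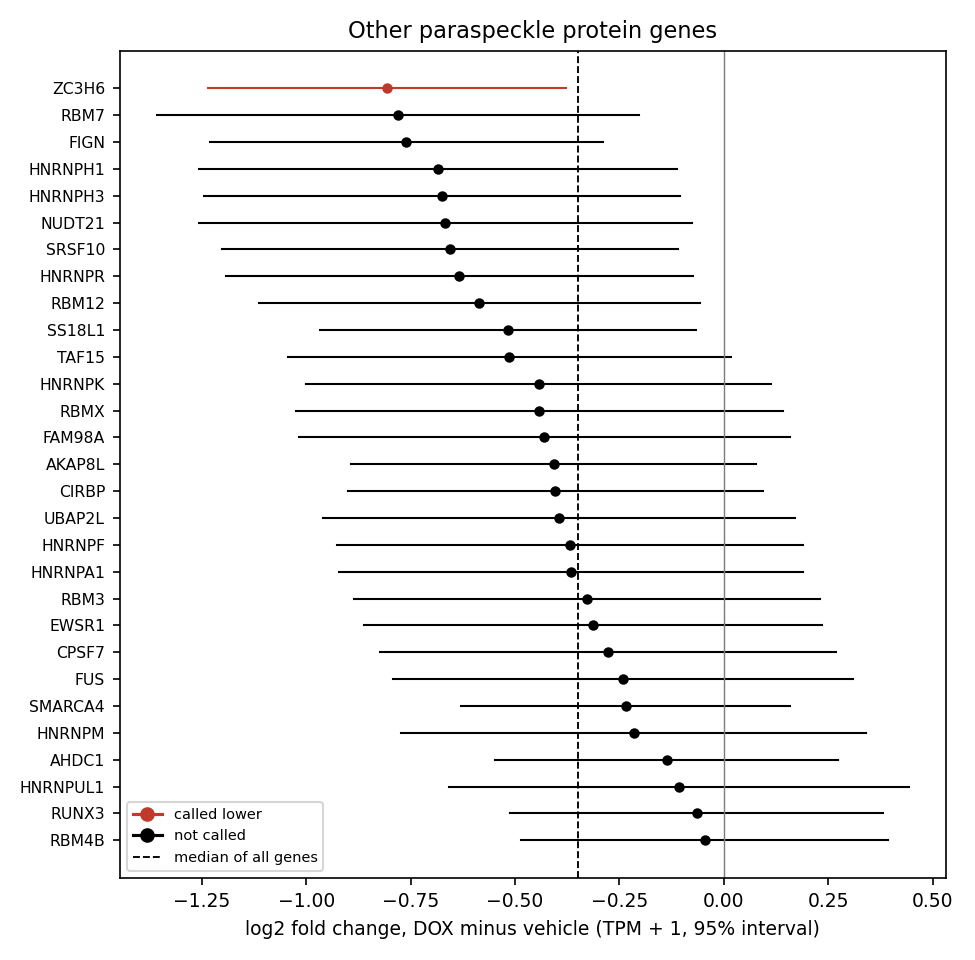
Log2 fold change (DOX minus vehicle, log2 of TPM + 1) with its 95% interval from limma for the 29 other paraspeckle genes tested, with a dashed line at the median of all genes (-0.35). ZC3H6 (red) was called lower, and the estimates run from -0.81 to -0.05.

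Genes that act on the 3′ end of NEAT1 gave 0 calls among the 7 tested of 8 listed, with a median log2 difference of -0.28 (-0.35 for all genes) and unadjusted p under 0.05 from limma for 2, CPSF6 and NUDT21. What share of all genes had such a p is not given here. The median was 0.00142 after median-of-ratios scaling, with 3 below and 4 above 0, and 0.04 after GC and length correction, so its sign turned. NUDT21, the subunit of cleavage factor Im that binds UGUA, was at 85.8 ± 22.5 TPM (SD, n = 3) with vehicle and 54.9 ± 19.5 TPM with DOX (-0.67, adjusted p = 0.129 from limma). CPSF7, the alternative partner of NUDT21, differed by -0.28, and HNRNPK, which competes with cleavage factor Im on NEAT1, by -0.44. The enzymes of tRNA-like end processing gave -0.27 for POP1, -0.14 for RPP38 and -0.05 for ELAC2, and RPP14 was under the minimum. With the replicate block CPSF6 and NUDT21 were called lower, in the fit that called 19.0% of all genes lower. Voom with the block called 0 of the 7. The ratio of CPSF6 to CPSF7 was 0.589, 0.689 and 0.754 in the vehicle and 0.460, 0.538 and 0.480 in the DOX samples, without overlap (1.37-fold lower, exact permutation p = 0.1, 0.2 after adjustment over 2 ratios). The ratio of CPSF6 to NUDT21 overlapped, at 0.245 to 0.293 against 0.241 to 0.275 (exact permutation p = 0.6).

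Proteins that bind the E-repeat gave 0 calls of 5, with a median of -0.46 (-0.35 for all genes) and 1 gene, MATR3, at an unadjusted p under 0.05 from limma. What share of all genes had such a p is not given here. The median was -0.05 after median-of-ratios scaling, with 3 below and 2 above 0, and 0.06 after GC and length correction. Voom with the block also called 0, and limma with the block called MATR3 alone, beside 19.0% of all genes called lower. CELF1, a regulator of splicing and mRNA decay, did not overlap between the groups (17.1 ± 3.74 against 12.1 ± 2.49 TPM, SD, n = 3 each), with a difference of -0.46 (adjusted p = 0.215 from limma). PTBP1, a splicing repressor, differed by -0.08 and CIZ1, which anchors XIST in the nucleus, by -0.02. Of 10 nuclear lncRNAs, 7 were tested and 2 were called lower, NEAT1 and MALAT1 (2.98% of all genes were), with a median of -0.76. The median was -0.33 after median-of-ratios scaling and -0.16 after GC and length correction. MALAT1 had a log2 difference of -1.29 (adjusted p = 0.00185 from limma), and after median-of-ratios scaling it was -0.85 (adjusted p = 0.253 from limma), which ended the call. The block called 5 of the 7 lower, beside 19.0% of all genes, and voom with the block called 2.

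The 5 genes whose log2(TPM + 1) ran most like that of NEAT1 over the 6 samples were SLFN5 (Pearson's r = 0.998), GOLGA8B (0.997), KYNU (0.997), CCDC113 (0.996) and CCDC18-AS1 (0.995). SLFN5 went from 5.71 ± 0.972 TPM to 2.32 ± 0.507 TPM (SD, n = 3 each), a log2 difference of -1.02 (adjusted p = 0.0115 from limma). MALAT1 ranked 123 of 11671 genes (r = 0.973). Among the 8 protein genes CPSF6 was most like NEAT1 (r = 0.906, rank 1646), followed by PSPC1 (0.863) and MATR3 (0.810), and RBM14 was least like it (0.509). These values describe the same 6 libraries, include the difference between the groups, and carry no test.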

How the data were processed

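RNA of the vehicle (n = 3) and DOX (n = 3) cultures was sequenced, and libraries were made with a stranded mRNA kit. The authors used STAR and GRCh38 for alignment and deposited a TPM value per gene symbol, in which each sample sums to 1000000. The versions of STAR and DESeq2 and the strand setting of the counting are not given in the sources used here. A second deposited table holds the authors' DESeq2 fold changes and p-values, which were not used, and their mean of normalized counts over all samples, which was used here as the authors' value.

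TPM keeps no depth, so reads were recovered from TPM and that mean. Of 22732 low values (up to 20 reads), 99.7% came out whole within 0.1 read, against 20% by chance. Depth ranged from 5455082 to 64572454 reads on genes, so vehicle replicate 3 limits the precision. No 2 samples held identical values (0 pairs).

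Values were tested as log2(TPM + 1) with limma 3.58.1 (R 4.3.3) with a variance trend, over 11672 genes with a mean of at least 1 TPM, and adjusted by Benjamini-Hochberg. A call needed an adjusted p under 0.05 together with more than a 1.5-fold difference. Values on this scale understate the change of low genes. Ratios within samples used two-sided exact permutation tests. Replicate numbers are shared by both groups. Same-numbered samples deviated together (r across genes of 0.57, 0.24 and 0.21 for numbers 1, 2 and 3), so blocked values are given where they change a call. This pairing rests on the correlations alone, and after GC and length correction r was 0.20, 0.02 and 0.17. The alternatives were median-of-ratios scaling, small RNAs left out, a pseudocount of 0.1, no filter or a minimum of 5 TPM, the replicate block, correction for GC content and length by splines with 5 degrees of freedom (GENCODE 44, 93.0% of genes tested matched), voom on recovered reads, and each sample left out. Combining the scaling and the block, and correcting for GC and length without a block, were added after the data were seen. The scripts were tested on simulated data.

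The members and gene lists were chosen with earlier results of these data known. The text names the members, the 3 lowest, 3 highest and called genes of the other paraspeckle list, the genes of the 3′ end and E-repeat lists, MALAT1, and the 5 genes most correlated with NEAT1. Genes named with the replicate block and marker genes were named after their values were seen. Some marker genes are not reported here. Python 3.11.15, pandas 2.3.3 and matplotlib 3.10.9 were used.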

Additional observations from a re-analysis of the deposited data

How the results depend on the processing

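NEAT1 was lower with DOX under all 17 alternatives, and its ratio to the protein genes moved by less than the replicate spread under each of them. Its log2 fold change, -1.53 as reported, missed the threshold at -1.10 (median-of-ratios scaling, with and without the block), -1.20 (small RNAs left out), -1.53 (no filter on low values, adjusted p = 0.311 from limma) and -1.01 (GC and length correction, with and without the block), and ran from -1.69 to -1.34 with a sample left out. Over all genes, the 348 genes called lower became 0 with median-of-ratios scaling (also with the block), with small RNAs left out, with no filter and with GC and length correction (also with the block), 46 with a pseudocount of 0.1, 633 with a minimum of 5 TPM, 1 with voom, and 0 to 2378 with a sample left out. The 3 genes called higher became 0 under those same settings, except for the pseudocount and the minimum of 5 TPM, 0 with voom, and 0 to 23 with a sample left out. Without a filter more genes were tested, and the cause of the other changes was not tested. The 348 became 1242 without vehicle replicate 1, 1 without vehicle replicate 2, 0 without vehicle replicate 3, then 129, 2378 and 139 when DOX replicate 1, 2 or 3 was left out.

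The replicate block called 2217 genes lower and 15 higher, and with voom on recovered reads 260 lower and 170 higher. In the block fit 2 protein genes (CPSF6 and MATR3) and 9 other paraspeckle genes were called lower, and it changed no other call among the 9 genes.

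The count of protein genes called lower was 0 to 2 with a sample left out. The 1 other paraspeckle gene called lower became 0 with median-of-ratios scaling (also with the block), small RNAs left out, a pseudocount of 0.1, no filter, a minimum of 5 TPM (ZC3H6 is then not tested), GC and length correction (also with the block) and voom, and 0 to 8 with a sample left out. The median log2 difference of the protein genes, -0.44 as reported, was -0.0169 with median-of-ratios scaling (also with the block), -0.0988 with small RNAs left out, 0.0506 with GC and length correction (also with the block), -0.0134 with voom and -0.0116 with voom and the block.

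Signs turned as follows, with the block where it was combined giving the same values. Median-of-ratios scaling gave 0.28 for DAZAP1, 0.10 for NONO, 0.18 for RBM14 and 0.0234 for SFPQ. Leaving out small RNAs gave 0.20 for DAZAP1, 0.0180 for NONO and 0.11 for RBM14. GC and length correction gave 0.17 for DAZAP1, 0.0799 for NONO, 0.0450 for RBM14, 0.0563 for MATR3 and 0.0570 for TARDBP. Voom gave 0.30 for DAZAP1, 0.11 for NONO, 0.24 for RBM14 and 0.0260 for SFPQ, and with the block 0.31, 0.11, 0.24 and 0.0312. With a sample left out, RBM14 ran from -0.39 to 0.0310, the latter without vehicle replicate 3. PSPC1 and CPSF6 stayed below 0 under all 17 alternatives. With 3 samples a group, the 95% intervals of the protein genes on the TPM scale span about 1 log2 unit, and the least deep library set the lowest read count, 175 reads for PSPC1.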
